A study of Mus musculus with 10 samples.

Results

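The genes described here move calcium and magnesium across the distal tubule of the kidney. The set was fixed as 10 gene symbols, and a gene entered when its Entrez Gene ID had a row in the expression table. This gave 9 of the 10 genes, out of 16475 genes measured: Trpm6 (Entrez Gene 225997), Cnnm2 (94219), Egf (13645), Calb1 (12307), S100g (12309), Pvalb (19293), Slc8a1 (20541), Atp2b1 (67972) and Casr (12374). The calcium channel gene Trpv5 had no row and was not analysed here.

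The samples were kidney cortex depleted of glomeruli from 10 mice of the BKS background at 24 weeks of age, 1 Affymetrix mouse genome array per mouse. The 5 db/db mice were diabetic, and the 5 db/m mice were non-diabetic littermates. The db allele disrupts Lepr, the gene of the leptin receptor. Both copies are mutant in db/db mice, and db/m mice as usually bred carry 1 mutant copy. No treatment was recorded for either group, and the labels used here give neither sex nor any pooling. RNA of this glomerulus-depleted cortex was measured in bulk, so more or fewer distal tubule cells and more or less RNA per cell cannot be told apart in any value below. All values are log2 expression levels, on which a difference of 1 is a 2-fold change. Each gene has its own probes, so levels of different genes, such as marker levels beside array medians, are only a rough guide.

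In the early distal convoluted tubule magnesium enters the cell from the urine through the TRPM6 channel, and EGF made by the same segment is known to raise the activity of that channel. CNNM2 lies in the opposite membrane, where it takes part in magnesium sensing or exit, and parvalbumin buffers calcium in these early cells. In the late distal convoluted and connecting tubule calcium enters through TRPV5, is carried by calbindin-D28k (Calb1) and calbindin-D9k (S100g), and leaves through the sodium-calcium exchanger NCX1 (Slc8a1) and the calcium pump PMCA1 (Atp2b1). The calcium-sensing receptor CASR, found mostly in the thick ascending limb upstream, senses blood calcium and restrains calcium uptake there. Parathyroid hormone and active vitamin D act on the calcium route.

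One animal, db/db 1, stood apart from the other mice, and the changes of the 9 genes are therefore given with all 10 arrays and without it. Across genes its array correlated with the others at 0.938 to 0.962, and the lowest value for a pair of the other 9 arrays was 0.985. The leukocyte markers lay on average 3.32 above their db/m means in db/db 1, with 8 of 9 higher than in every db/m mouse. The range over db/db 2 to 5 was -0.81 to 1.26, and over db/m -0.27 to 0.15. The tubular injury genes stood at 3.88 in db/db 1, with 10 of 10 above every db/m mouse, and at 0.40 to 1.47 in db/db 2 to 5. Their db/m range was -0.33 to 0.59, so db/m 4, at 0.59, lay above db/db 4 and db/db 5, at 0.40 and 0.45. The share of all genes above every db/m mouse in db/db 1 was not counted, and 49.4% lay below every db/m mouse. The 10 proximal tubule genes, the main cell type of cortex, had db/m means of 11.35 to 14.18, beside array medians of 8.46 to 8.66. The 7 podocyte genes, which mark glomeruli, had db/m means of 7.56 to 10.74, and how far glomeruli were depleted was not tested.

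The sequences just before the gene starts of Trpm6, Slc8a1 and Pvalb, the rising genes with an entry, are shown with that of S100g, which did not pass the test. They come from the RefSeq promoter table of build GRCm38.p6, in which 8 of the 9 genes have an entry, and cover the 250 bases before the start. For Pvalb, which has more than 1 start there, the first entry is shown. Capitals mark AGGTCA, the core sequence bound by several nuclear receptors, or its reverse complement TGACCT.
Trpm6, chr19:18749480-18749729, plus strand: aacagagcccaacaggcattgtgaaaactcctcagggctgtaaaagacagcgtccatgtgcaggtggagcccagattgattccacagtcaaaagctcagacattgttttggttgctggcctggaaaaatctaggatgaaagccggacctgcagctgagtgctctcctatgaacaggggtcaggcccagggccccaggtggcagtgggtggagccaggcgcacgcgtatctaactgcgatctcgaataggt
Slc8a1, chr17:81738388-81738637, minus strand: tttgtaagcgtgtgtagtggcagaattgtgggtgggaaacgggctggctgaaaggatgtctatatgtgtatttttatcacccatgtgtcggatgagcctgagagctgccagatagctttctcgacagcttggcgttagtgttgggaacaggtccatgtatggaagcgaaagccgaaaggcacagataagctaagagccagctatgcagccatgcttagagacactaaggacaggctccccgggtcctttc
Pvalb, chr15:78206401-78206650, minus strand: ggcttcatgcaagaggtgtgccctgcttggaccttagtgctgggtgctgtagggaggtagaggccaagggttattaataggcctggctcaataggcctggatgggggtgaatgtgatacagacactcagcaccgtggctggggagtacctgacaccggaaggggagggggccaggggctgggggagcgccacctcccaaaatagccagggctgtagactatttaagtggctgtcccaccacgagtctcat
S100g, chrX:162964600-162964849, minus strand: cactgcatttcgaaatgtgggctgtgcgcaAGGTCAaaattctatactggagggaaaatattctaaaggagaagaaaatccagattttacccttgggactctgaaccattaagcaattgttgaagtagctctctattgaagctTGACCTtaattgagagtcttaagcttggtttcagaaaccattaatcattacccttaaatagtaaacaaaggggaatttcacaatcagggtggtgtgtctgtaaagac
The search covered 7 motifs on both strands, no one of which contains another. Besides AGGTCA, which 14.0% of all 32851 windows of this length in the table held, they were TATAAA of the TATA box (held by 12.4%), CCAAT of the CCAAT box (33.8%), GGGCGG of the GC box (32.7%), AGAACA bound by steroid hormone receptors (16.1%), TGACTCA bound by AP-1 (4.46%) and GTTAAT bound by HNF1 factors (6.43%). No match was found in the windows of Trpm6, Slc8a1 and Pvalb. In S100g AGGTCA began 220 bases before the start, and its reverse complement began 107 bases before it. These matches describe the letters of the windows alone.

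With all 10 arrays Trpm6 rose in db/db and was the 1 gene of the 9 past the threshold, an adjusted p under 0.05 by limma with Benjamini-Hochberg adjustment over all genes. By limma 0 of the 9 fell, and Trpm6 was also the 1 gene with an unadjusted p under 0.05. Over all genes tested 2.96% were called higher and 3.54% lower at the adjusted threshold. The share of all genes at the unadjusted threshold is not given, so counts at it, here and below, are descriptions only. Without db/db 1 the magnesium channel gene Trpm6, the calcium exchanger gene Slc8a1 and the calcium buffer genes Calb1 and Pvalb rose, 4 of 9, against 6.84% of all genes called higher and 5.93% lower. In 3 of the 9, Trpm6, Slc8a1 and Pvalb, these 4 db/db mice all lay above every db/m mouse, which 7.76% of all genes did. The other 5 genes, Egf, Cnnm2, S100g, Atp2b1 and Casr, did not pass in either fit. The median change over the 9 genes was -0.01 with all arrays and 0.08 without db/db 1, beside -0.03 and -0.01 over all genes.

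**Figure D1:**
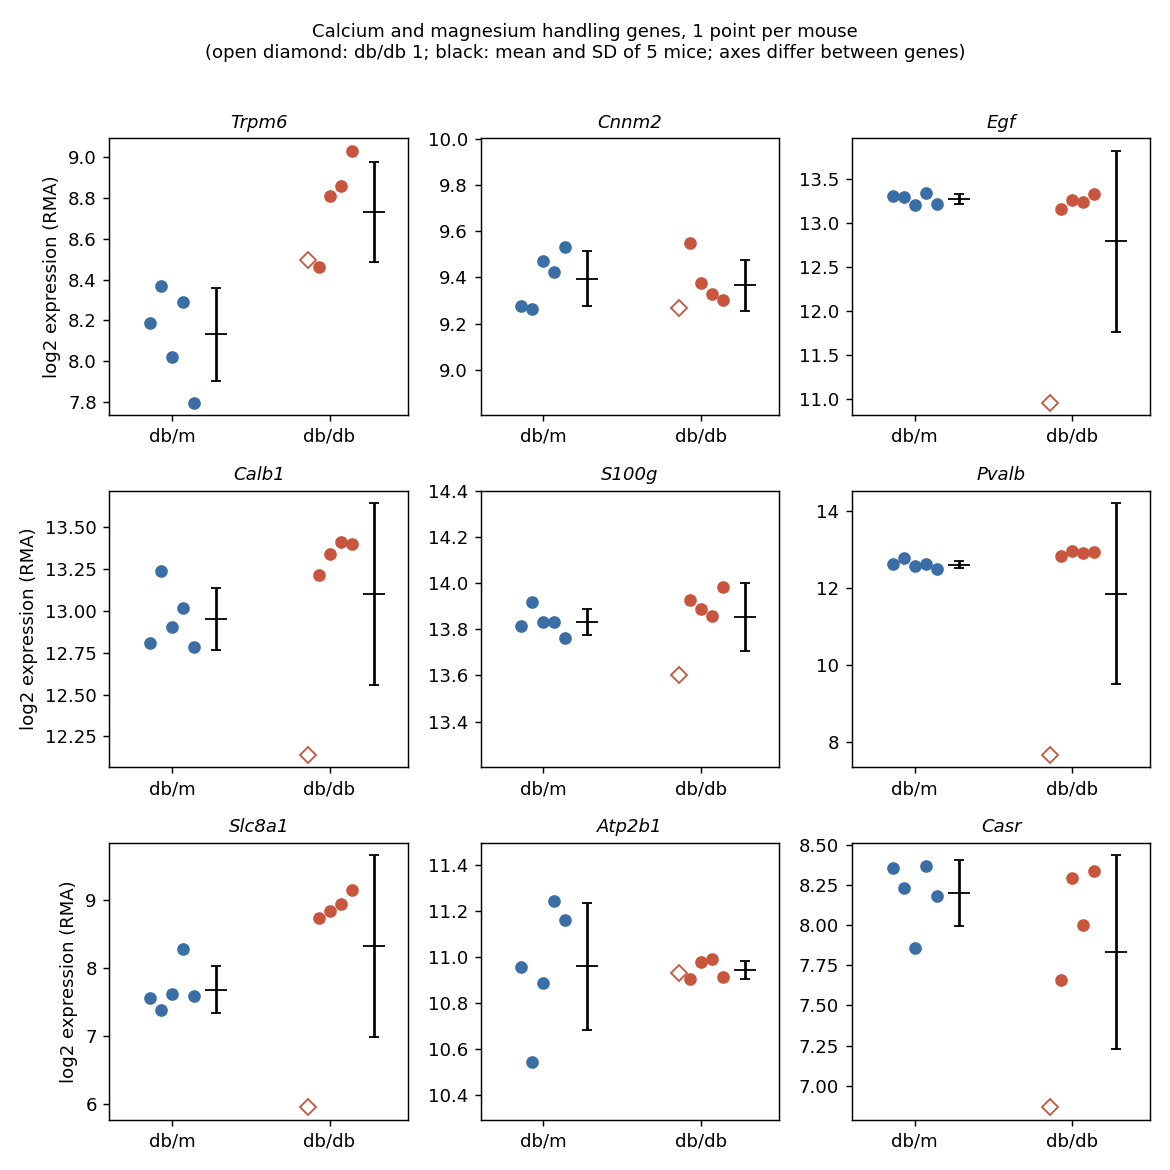
Log2 expression of each of the 9 genes (vertical axis, its range differing between genes) in db/m and db/db mice, 1 point per mouse, with the mean and SD of the 5 mice in black and db/db 1 as an open diamond. Db/db 1 is far below every other mouse in Pvalb, Egf and Slc8a1, while in Trpm6 it lies with the other db/db mice.

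Among the magnesium genes, Trpm6 was higher in every db/db mouse than in every db/m mouse. It measured 8.19, 8.37, 8.02, 8.29 and 7.80 in db/m 1 to 5, and 8.50, 8.46, 8.81, 8.86 and 9.03 in db/db 1 to 5. Db/db 1 and db/db 2 were the lowest of the diabetic mice and still above the highest db/m mouse, db/m 2. The group means were 8.13 ± 0.23 (SD, n = 5) and 8.73 ± 0.24 (SD, n = 5), a rise of 0.60 ± 0.14 (SE), or 1.52-fold, with a limma adjusted p = 0.0356 and an exact two-sided permutation p = 0.00794, the smallest that 252 splits of the arrays can give. Groups without overlap in this direction were found for 4.35% of all genes. Without db/db 1 the rise was 0.66 ± 0.14 (limma adjusted p = 0.0148). The call with all arrays was kept in 3 of the 10 fits that each left out 1 mouse. It was lost without db/m 1, 3, 4 or 5 and without db/db 3, 4 or 5, with a limma adjusted p of up to 0.0965 without db/m 3. Among the fits without db/db 1 it was kept in 9 of 9. With all arrays the call was also lost when quantile normalisation was repeated, when arrays were centred on their medians and with the replicate number as a block (limma adjusted p = 0.0751, 0.0612 and 0.138), and the block ended it without db/db 1 as well (limma adjusted p = 0.0981).

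Egf, the growth factor gene of the same segment, did not differ between the groups beyond its spread, but was very low in 1 mouse. Its level was 13.31, 13.30, 13.21, 13.35 and 13.22 in db/m 1 to 5, and 10.95, 13.17, 13.27, 13.24 and 13.34 in db/db 1 to 5. The db/m range was thus about as narrow as that of db/db 2 to 5, and db/db 1 alone lay 5.01-fold below the db/m mean. With all arrays the change was -0.49 ± 0.41 (limma adjusted p = 0.543). When db/db 1 was left out it was -0.03 ± 0.06 with a 95% interval of -0.16 to 0.11 (limma adjusted p = 0.843).

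Cnnm2, the gene of the magnesium protein in the membrane facing the blood, lay between 9.27 and 9.53 in db/m and between 9.27 and 9.55 in db/db, so the groups overlapped fully. Its change was -0.03 with a 95% interval of -0.21 to 0.15 (limma adjusted p = 0.871), and -0.01 with an interval of -0.19 to 0.18 without db/db 1 (limma adjusted p = 0.981). Db/db 1, at 9.27, was the lowest diabetic mouse and still above db/m 2.

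Of the calcium genes, the exchanger gene Slc8a1 had the widest gap between db/db 2 to 5 and db/m. It measured 7.55, 7.38, 7.62, 8.28 and 7.59 in db/m 1 to 5, and 5.96, 8.74, 8.83, 8.94 and 9.14 in db/db 1 to 5. Db/m 4 was the highest of its group, and db/db 2 to 5 all lay above it, whereas db/db 1 lay below every other mouse. With all arrays the change was 0.64 ± 0.55 (limma adjusted p = 0.548), and the group means were 7.68 ± 0.35 (SD, n = 5) and 8.32 ± 1.33 (SD, n = 5). Without db/db 1 the db/db mean was 8.91 ± 0.17 (SD, n = 4), a rise of 1.23 ± 0.17, or 2.34-fold (limma adjusted p = 0.00199, exact permutation p = 0.0159). This call was kept in 9 of 9 fits that left out a further mouse, with changes of 1.15 to 1.38.

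Calb1, which encodes the main calcium buffer of these cells, showed a smaller difference, again with db/db 1 as the lowest mouse. Its level was 12.81, 13.24, 12.90, 13.02 and 12.78 in db/m 1 to 5, and 12.14, 13.21, 13.34, 13.41 and 13.40 in db/db 1 to 5. Db/m 2, at 13.24, was just above db/db 2, at 13.21, so db/db 2 to 5 and db/m overlapped by this pair alone. With all arrays the change was 0.15 ± 0.23 (limma adjusted p = 0.757). It rose by 0.39 ± 0.10, or 1.31-fold, without db/db 1 (limma adjusted p = 0.0313, exact permutation p = 0.0238). That call was kept in 3 of 9 fits with a further mouse left out, and was lost without db/m 1, 3 or 5 and without db/db 3, 4 or 5, with a limma adjusted p of up to 0.0823 without db/db 4.

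S100g, the gene of the small calbindin, lay between 13.76 and 13.92 in db/m. The db/db range was 13.60, in db/db 1, to 13.99. Its change was 0.02 with a 95% interval of -0.16 to 0.20 (limma adjusted p = 0.907), and 0.08 with an interval of -0.05 to 0.21 without db/db 1 (limma adjusted p = 0.412). The highest value of any gene on these arrays was 14.53, and whether differences are compressed near that level was not tested.

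Pvalb, the buffer gene of the early distal convoluted tubule, had the largest deviation of the 9 genes in db/db 1. It measured 12.62, 12.77, 12.57, 12.62 and 12.49 in db/m 1 to 5, and 7.66, 12.82, 12.96, 12.91 and 12.94 in db/db 1 to 5. Every mouse but db/db 1 lay within a narrow band, and db/db 2 to 5 were all above the highest db/m mouse. Db/db 1 was 31.0-fold below the db/m mean, the third lowest deviation among all 16475 genes in that array. With all arrays the change was -0.75 ± 0.93 (limma adjusted p = 0.686), and without db/db 1 its sign turned to a rise of 0.30 ± 0.07, or 1.23-fold (limma adjusted p = 0.0219, exact permutation p = 0.0159). The latter call was kept in 5 of 9 fits and lost without db/m 3 or db/db 3, 4 or 5, with a limma adjusted p of up to 0.0602 without db/m 3. Skeletal muscle also makes parvalbumin, and the 7 muscle markers had db/m means of 3.93 to 7.63. In db/db 1 they lay on average at -0.03, within their db/m range of -0.18 to 0.21, but single markers moved both ways. There 3 of the 7 lay below every db/m mouse and 2 above, and 49.4% of all genes lay below. What part muscle has in the Pvalb values was not tested.

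Atp2b1, the calcium pump gene, spread more among db/m mice than among db/db mice. It lay between 10.54, in db/m 2, and 11.24, in db/m 4, while the 5 db/db mice, db/db 1 included, lay between 10.91 and 10.99. The change was -0.01 with a 95% interval of -0.28 to 0.25 (limma adjusted p = 0.957), and again -0.01, with an interval of -0.30 to 0.28, without db/db 1 (limma adjusted p = 0.973).

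Casr, the calcium sensor gene, lay between 7.86, in db/m 3, and 8.36, in db/m 4. In db/db it ran from 6.87 in db/db 1 and 7.66 in db/db 2 up to 8.33 in db/db 5. The groups overlapped, with db/db 1 and db/db 2 below every db/m mouse. The change was -0.37 ± 0.26 (limma adjusted p = 0.454), and -0.13 ± 0.15 without db/db 1 (limma adjusted p = 0.674), for which the 95% interval was -0.47 to 0.22.

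**Figure D2:**
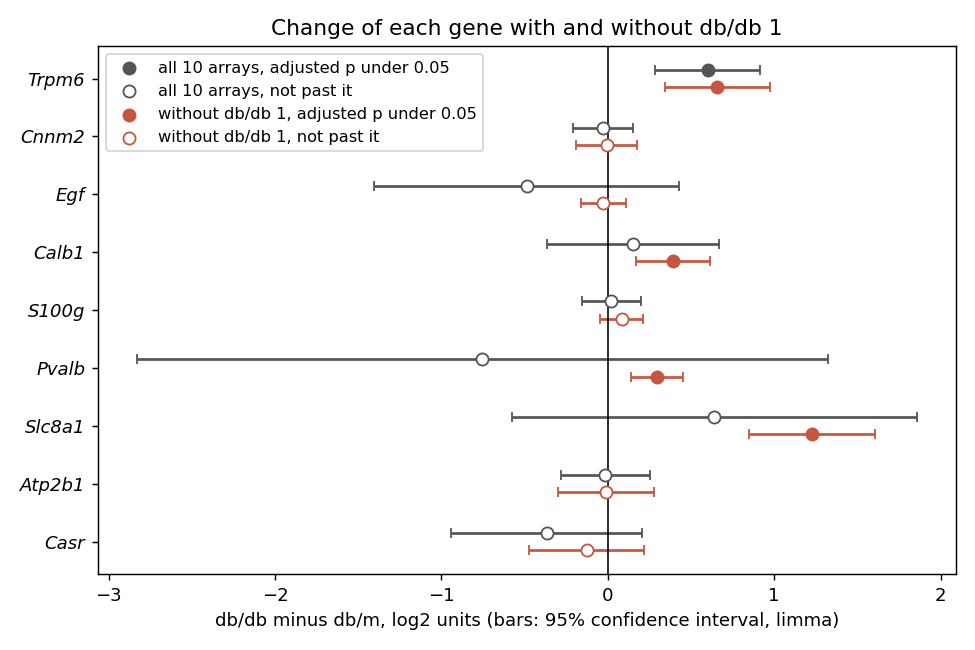
Change of each gene, db/db minus db/m in log2 units, with its 95% confidence interval from limma, for all 10 arrays (grey) and without db/db 1 (red); filled points have an adjusted p under 0.05. Leaving out db/db 1 narrows the intervals of Egf, Calb1, Pvalb and Slc8a1, and the point for Pvalb moves from -0.75 to 0.30.

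In db/db 1 itself, 6 of the 9 genes were below every db/m mouse, and 49.4% of all genes were. A fall of at least 2-fold from the db/m mean was shown by 4 of the 9, Pvalb, Egf, Slc8a1 and Casr, against 4.6% of all genes. Their deviations were -4.96, -2.33, -1.73 and -1.33, and those of Calb1 and S100g were -0.81 and -0.23. Falls of at least 2-fold in db/db 1 were also seen in other lists. The counts were 3 of 9 thick ascending limb genes, 3 of 9 principal cell genes and 3 of 8 intercalated cell genes. They were 1 of 8 for distal convoluted tubule genes and 1 of 10 for proximal tubule genes. For other calcium route genes the count was 1 of 13. It was 0 of 19 for other magnesium transport genes, 0 of 14 for hormone genes and 0 of 7 for podocyte genes. Trpm6 was 0.37 above the db/m mean in the same mouse, and Cnnm2 and Atp2b1 were at -0.13 and -0.03. With 1 mouse these values have no replicate, and the part of the leukocyte and injury signal of that mouse in them was not tested.

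**Figure D3:**
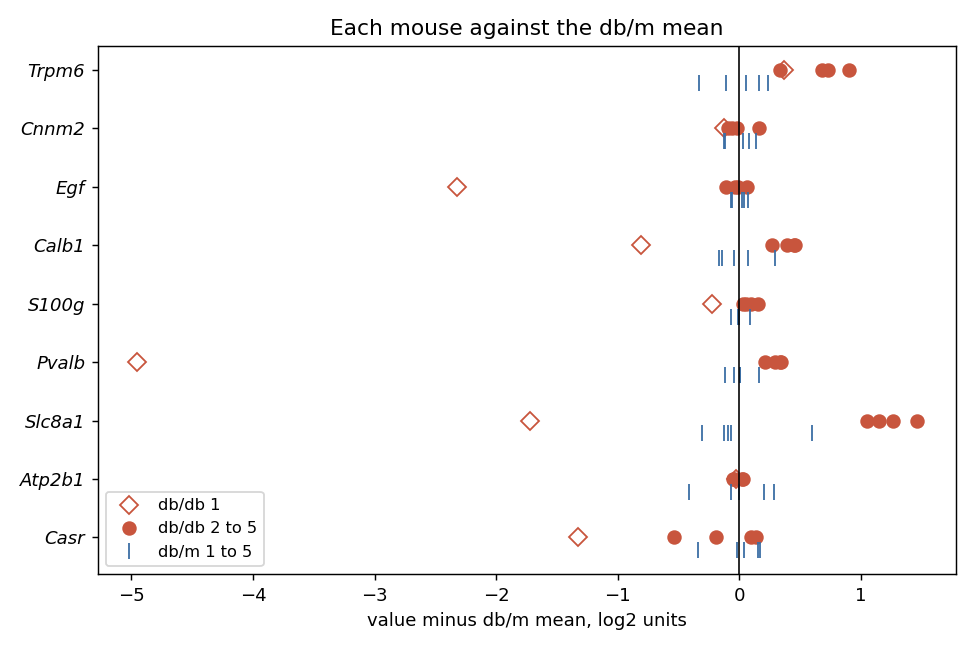
Value of each gene in each mouse minus its db/m mean, in log2 units, with db/db 1 as an open diamond, db/db 2 to 5 as filled points and the db/m mice as blue ticks. Pvalb in db/db 1 lies at -4.96, and Slc8a1 in db/db 2 to 5 lies to the right of all db/m ticks.

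Other genes of the distal convoluted tubule were compared because a change shared with them and a change of the transport genes alone look the same in bulk RNA. Of 8 such genes measured of 9 listed, 0 passed with all arrays by limma, and 0 had an unadjusted p under 0.05. Leaving out db/db 1, 3 rose and 0 fell: Cwh43 by 1.07 ± 0.10, the thiazide-sensitive sodium chloride cotransporter gene Slc12a3 by 0.46 ± 0.10, and its regulator kinase gene Wnk4 by 0.26 ± 0.06 (limma adjusted p = 0.000296, 0.014 and 0.0266). All 8 changes were positive, with a median of 0.27, and 6.84% of all genes were called higher without db/db 1. The list mean lay between 0.24 and 0.43 above its db/m mean in db/db 2 to 5, between -0.05 and 0.10 in db/m, and at -0.68 in db/db 1. Wnk4 kept its call in 4 of 9 fits with a further mouse left out, with a limma adjusted p of up to 0.0695 without db/db 5.

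When each array was centred on the mean of these 8 genes and db/db 1 was left out, Slc8a1 was still higher by 0.89 ± 0.15 and Trpm6 by 0.32 ± 0.13 (limma adjusted p = 0.00116 and 0.0456). Calb1 and Pvalb then differed by 0.05 ± 0.10 and -0.05 ± 0.08 (limma adjusted p = 0.683 and 0.613). This centring shifted every gene of an array by the same amount. It moved the median change of all genes to -0.35, and 62.3% of all genes were called lower and 2.41% higher. The 5 genes that did not pass before, Egf, Cnnm2, S100g, Atp2b1 and Casr, were then among those called lower, at -0.37, -0.35, -0.26, -0.35 and -0.47. Against the all-gene median Slc8a1, Trpm6, Calb1 and Pvalb were at 1.24, 0.66, 0.40 and 0.30, and the other 5 were at -0.02, 0.00, 0.09, -0.01 and -0.12. A shift shared by all genes of an array cannot alter these distances. They are therefore close to the changes without the centring by construction, and are no check on the rises. With db/db 1 included no gene of the 9 passed on this scale, and Trpm6 was at 0.46 (limma adjusted p = 0.322). The mean of the 8 genes included Cwh43, whose change of 1.07 without db/db 1 was the largest of the 8. Centring without Cwh43 was not tested.

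Markers of neighbouring cell types moved in the same mice. Over all genes 2.96% were called higher with all arrays and 6.84% without db/db 1. For principal cells, which share the connecting tubule with the calcium genes, 0 of 9 passed with all arrays by limma, with 3 at an unadjusted p under 0.05, and 5 rose without db/db 1, among them the sodium channel genes Scnn1g and Scnn1b by 1.01 and 0.77, Gata3 by 0.57 and the water channel gene Aqp2 by 0.57. Changes were positive in 5 of these 9 genes with all arrays and in 7 without db/db 1. Aqp4 was at -0.89, and at -0.86 without db/db 1 (limma adjusted p = 0.384 and 0.409), and Fxyd4 at -0.09 in both. The principal cell mean lay at 0.23 to 0.47 in db/db 2 to 5, at -0.21 to 0.17 in db/m and at -0.68 in db/db 1. For intercalated cells, 1 of 8 measured rose with all arrays, the water channel gene Aqp6 by 1.02, and 3 without db/db 1, with Aqp6 at 1.21, the anion exchanger gene Slc4a1 at 0.93 and the ammonia channel gene Rhcg at 0.37. Their mean lay at 0.22 to 0.61 in db/db 2 to 5, at -0.27 to 0.17 in db/m and at -0.99 in db/db 1. Of the proximal tubule genes 0 of 10 passed with all arrays by limma, with 0 at an unadjusted p under 0.05, and 1 rose without db/db 1, the organic anion transporter gene Slc22a8 by 0.83, with 4 at an unadjusted p under 0.05. Their mean too lay above every db/m mouse in db/db 2 to 5, at 0.12 to 0.16 against -0.10 to 0.06, and at -0.56 in db/db 1. Podocyte genes rose in 3 of 7 with all arrays, led by Ptpro at 0.58, Synpo at 0.46 and Wt1 at 0.45, and in 6 of 7 without db/db 1, led by Nphs1 at 0.80. The podocyte mean lay at 0.38 to 0.59 in db/db 2 to 5, at -0.08 to 0.09 in db/m and at 0.22 in db/db 1. What part these shifts of marker lists have in the 4 rises was not tested.

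In the remaining marker lists no leukocyte gene of 9 and no muscle gene of 7 passed in either limma fit, and at an unadjusted p under 0.05 the counts were 0 and 0 with all arrays and 0 and 1 without db/db 1. S100a8 had the lowest p of the leukocyte genes (2.43 ± 1.23, limma adjusted p = 0.285, and 1.49 without db/db 1), and Myh4 that of the muscle genes (0.11 ± 0.12, limma adjusted p = 0.623, and 0.17 without db/db 1). Of 10 tubular injury genes 4 rose with all arrays, including Krt19 by 1.92, Cdkn1a by 1.77 and Krt18 by 1.17, and 6 rose without db/db 1, including Krt19 by 1.62, Cdkn1a by 1.43, Krt20 by 1.01 and Krt18 by 0.94. The shares of all genes called higher in these fits were 2.96% and 6.84%. Krt19 kept its call in 4 of 10 fits, Wt1 in 8 of 10, Gata3 in 8 of 9, Rhcg in 3 of 9 and Krt20 in 1 of 9, with limma adjusted p of up to 0.0727 and 0.0613 without db/m 3, 0.0507 and 0.0801 without db/db 3, and 0.102 without db/db 5.

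**Figure D4:**
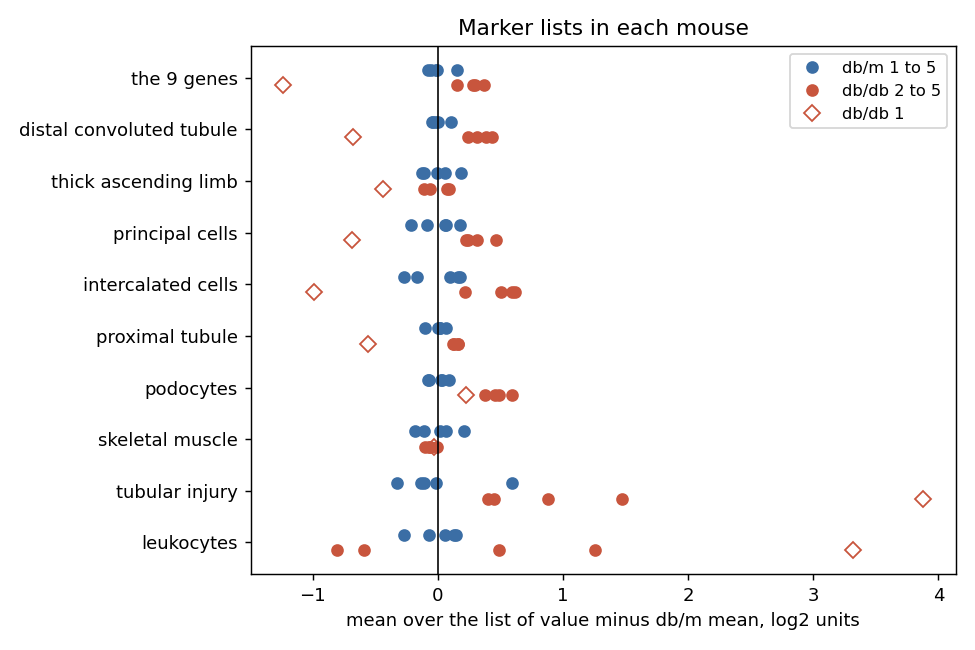
Mean over each gene list of the value minus its db/m mean, in log2 units, 1 point per mouse, with db/db 1 as an open diamond. The distal convoluted tubule, principal cell, intercalated cell and proximal tubule lists lie to the right of the db/m mice in db/db 2 to 5 and to the left in db/db 1, in which the injury and leukocyte lists reach 3.88 and 3.32.

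Among the other genes of magnesium transport, 1 of 19 rose and 1 fell, in both fits. These counts are near the shares of all genes. The shares were 2.96% higher and 3.54% lower with all arrays, and 6.84% and 5.93% without db/db 1. Slc41a1, which encodes a magnesium exchanger, rose by 0.38 ± 0.06 (limma adjusted p = 0.00884), and by 0.36 without db/db 1, with the call kept in every fit that left out a mouse. Magt1, named for magnesium transport and also a part of the protein glycosylation machinery, fell by 0.73 ± 0.15 (limma adjusted p = 0.0214), and by 0.67 without db/db 1. Its call was kept in 7 of 10 fits, with a limma adjusted p of up to 0.0544 without db/m 5, and in 8 of 9 fits without db/db 1. The channel gene Trpm7, the closest relative of Trpm6, was at -0.03 ± 0.17 (limma adjusted p = 0.942), and the EGF receptor gene Egfr was at -0.11 ± 0.11 (limma adjusted p = 0.626). Leaving out db/db 1 put these at 0.11 and -0.12. The median of the 19 genes was -0.03, the same as over all genes, and 0.00 without db/db 1.

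In the calcium route 0 of 13 genes measured of 15 listed passed with all arrays by limma, and 2 had an unadjusted p under 0.05. Slc8a2, a sister exchanger gene of Slc8a1, was dim at 5.28 in db/m and fell by 0.27 ± 0.08 without db/db 1 (limma adjusted p = 0.0443), a call kept in 2 of 9 fits and lost with a limma adjusted p of up to 0.112 without db/db 4. Trpv6, the intestinal relative of the missing Trpv5, was at 0.92 ± 0.43 (limma adjusted p = 0.246), and at 0.50 ± 0.22 without db/db 1 (limma adjusted p = 0.185), a mouse in which it lay 2.61 above the db/m mean. Slc8a2 was the 1 gene of the 13 called without db/db 1, where 5.93% of all genes were called lower. The median of the 13 genes was 0.06 in both fits.

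Of 14 hormone genes 3 rose in both fits, against 2.96% of all genes with all arrays and 6.84% without db/db 1. Cyp24a1, whose enzyme breaks down active vitamin D, rose by 1.48 ± 0.26, or 2.8-fold, and Cyp27b1, whose enzyme makes it, rose by 0.90 ± 0.17, or 1.86-fold (limma adjusted p = 0.0101 and 0.0159). Both calls were kept in every fit that left out 1 mouse, and without db/db 1 the rises were 1.68 and 0.96. The kinase gene Sgk1 rose by 0.41 ± 0.08 (limma adjusted p = 0.0201), a call kept in 9 of 10 fits and lost without db/m 3 (limma adjusted p = 0.063), and by 0.43 without db/db 1. The receptor genes Vdr and Pth1r were at -0.23 ± 0.13 and -0.08 ± 0.05 (limma adjusted p = 0.329 and 0.447), or -0.14 and -0.07 without db/db 1. Though small, the Pth1r difference was without overlap, with the highest db/db mouse at 13.718 and the lowest db/m mouse at 13.723. The share of all genes lower without overlap was not counted. The list median was -0.10, or 0.03 without db/db 1.

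In the thick ascending limb list, which holds the route between cells that Casr restrains, 1 of 9 genes fell and 0 rose, in both limma fits, with 2 at an unadjusted p under 0.05 in each. Of all genes 3.54% were called lower with all arrays and 5.93% without db/db 1. The claudin gene Cldn10 fell by 0.23 ± 0.06 (limma adjusted p = 0.0433), a call kept in 1 of 10 fits, with a limma adjusted p of up to 0.125 without db/m 3. It fell by 0.22 without db/db 1, a call kept in 2 of 9 fits. Cldn16 and Cldn19, which form the magnesium and calcium pore between these cells, were at 0.04 ± 0.15 and -0.15 ± 0.19 (limma adjusted p = 0.893 and 0.69), or 0.08 and -0.16 without db/db 1. The median was -0.13, or -0.06 without db/db 1. The list mean lay at -0.44 in db/db 1, at -0.11 to 0.09 in db/db 2 to 5 and at -0.12 to 0.18 in db/m.

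**Figure D5:**
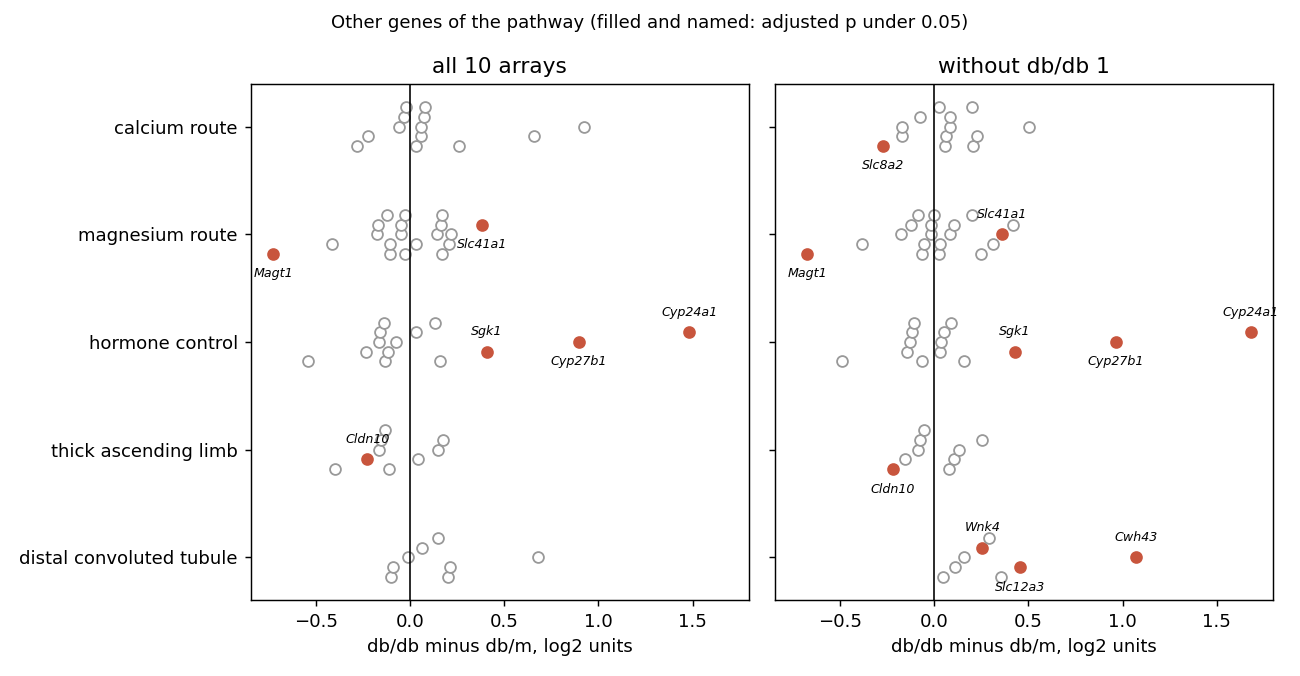
Change of each other pathway gene, db/db minus db/m in log2 units, with all 10 arrays (left) and without db/db 1 (right); filled and named genes have an adjusted p under 0.05. Cyp24a1 and Cyp27b1 lie farthest to the right in the hormone list in both panels, and the distal convoluted tubule genes Cwh43, Slc12a3 and Wnk4 are filled in the right panel.

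For the 4 genes that passed in either fit, the genes of most similar pattern were those with the smallest root mean square difference over the 10 arrays, each gene taken as its value minus its db/m mean. For Trpm6 these were Ildr1, Ap1m2 and Rhpn2, at 0.08, 0.12 and 0.12 log2 units, beside a root mean square of 0.47 for Trpm6 itself. For Calb1 they were Ctf1, Glt28d2 and Tpd52l1, at 0.09, 0.10 and 0.12, beside 0.38. For Slc8a1 they were Atp4a, Cwh43 and Slc13a4, at 0.31, 0.37 and 0.37, beside 0.98, and for Pvalb Gpx6, Alb and Cpne4, at 0.53, 0.61 and 0.62, beside 1.58. The Pvalb set largely follows db/db 1, in which Gpx6, Alb and Cpne4 were at -3.46, -3.45 and -4.00. Without db/db 1 their changes were 0.11, 0.45 and -0.47, beside 0.30 for Pvalb. In the Slc8a1 set Atp4a, Cwh43 and Slc13a4 were at -1.36, -0.89 and -1.13 in db/db 1. Without that mouse they were higher in db/db by 1.02, 1.07 and 1.10, beside 1.23 for Slc8a1. Ildr1, Ap1m2 and Rhpn2 were, like Trpm6, above their db/m mean in that mouse, by 0.34, 0.16 and 0.52. All these genes were picked for likeness over the same arrays, so their shared values follow from the choice and are descriptions only.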

How the data were processed

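The members and lists were chosen with earlier results of these data known. RMA is the tool named in the submitters' processing notes, and the deposited table holds 1 log2 value per Entrez Gene ID. The sources used here give neither its version nor how probes were regrouped by gene. The 64 control rows were left out and 16475 genes tested, named through the probe annotation and, for 16229, RefSeq by Entrez ID. Array medians were 8.46 to 8.66, and values were used as deposited. No 2 arrays were copies. Arrays give no counts, and their number limits precision.

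Groups were compared with limma 3.58.1 (lmFit, eBayes) in R 4.3.3, two-sided, and adjusted over all genes. The text names the 9 genes, up to 4 genes per list with the largest change past the threshold in either fit, or the one with the lowest p, and the 3 most similar genes per called member. Trpm7, Egfr, Trpv6, Vdr, Pth1r, Cldn16 and Cldn19 were added after their values were seen. A further gene was taken out of the thick ascending limb list and is not reported here. The fit was tested on simulated data. Figures used Python 3.11.15 and matplotlib 3.10.9. Same-numbered mice did not deviate together (r of -0.09 to 0.01), so the numbers were not taken as pairs. Alternatives covered scaling, filters, variance models, thresholds and each mouse left out.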

Additional observations from a re-analysis of the deposited data

Results flagged for a closer look

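In 21 of 96 groups tested over the named genes, 1 mouse lay apart from the other 4 of its group, with a gap to its nearest neighbour over 0.71 of the group's range, and 19 of these were db/db 1. Chance gives about 1 in 20 in genes not chosen for their values, but the genes of similar pattern, and those named because they passed only without db/db 1, were chosen on these arrays, so the count is a description. Among the 9 genes db/db 1 was the low mouse of its group with a gap share of 0.975 in Pvalb, 0.928 in Egf, 0.873 in Slc8a1 and 0.846 in Calb1, and db/m 4 was the high mouse of its group in Slc8a1 at 0.739. In the distal convoluted tubule and collecting duct lists db/db 1 was the low mouse at 0.867 in Cwh43, 0.75 in Slc12a3, 0.793 in Scnn1g, 0.716 in Scnn1b, 0.821 in Slc4a1 and 0.768 in Rhcg. It was also the low mouse at 0.851 in Slc22a8 and 0.851 in Nphs1, and the high mouse at 0.779 in Krt18. Among the genes of similar pattern it was the low mouse at 0.82 in Glt28d2, 0.797 in Atp4a, 0.815 in Slc13a4, 0.818 in Gpx6, 0.783 in Alb and 0.732 in Cpne4. In Cyp27b1 db/m 4 was the low mouse of its group at 0.722.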

How the results depend on the processing

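Slc8a1 and Trpm6 without db/db 1 kept direction and call with array weights, a repeated quantile normalisation, centring on array medians or on the distal list, dim genes left out, a trended robust eBayes and a 1.5-fold minimum. Settings on the 9 arrays other than the block, the distal list and a further mouse left out were chosen after seeing the data. With all arrays the count of higher genes, 1, was 0 with the replicate block, quantile normalisation repeated, median centring, distal list centring and an adjusted p under 0.01, and 3 with array weights, where db/db 1 had a weight of 0.102. Without db/db 1 the count, 4, was 1 with the block, 2 with distal list centring (and 5 lower), 1 at an adjusted p under 0.01 and 2 with a 1.5-fold minimum. With the replicate block Trpm6 was at 0.60 (adjusted p = 0.138), and without db/db 1 Slc8a1 kept its call while Trpm6, Calb1 and Pvalb did not (adjusted p = 0.0981, 0.158 and 0.142). Signs turned for S100g with median centring (-0.0468) and distal list centring (-0.12, or -0.26 without db/db 1), for Pvalb with distal list centring without db/db 1 (-0.0471) and with array weights (0.21), and for Atp2b1 with array weights (0.000797, or 0.00674 without db/db 1). With 1 mouse left out the higher count ranged from 0 to 4, and from 2 to 4 without db/db 1. Changes that crossed 0 in those fits ranged from -1.03 to 0.30 for Pvalb, -0.118 to 0.0565 for Atp2b1, -0.0757 to 0.00559 for Cnnm2 and -0.0122 to 0.0835 for S100g. Without db/db 1 they ranged from -0.115 to 0.0602 for Atp2b1, -0.0592 to 0.0296 for Cnnm2, -0.215 to 0.0108 for Casr and -0.0544 to 0.00259 for Egf. Centring on the distal list moved the all-gene median change to -0.17, or -0.35 without db/db 1, against which S100g was at 0.05 and 0.09 and Pvalb without db/db 1 at 0.30, so those signs turned with the scale of all genes. Median centring moved it to -0.10. The cause of the other turns was not tested. The number of arrays limits what is detectable.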
